A study of Homo sapiens with 9 samples.

Results

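Transcripts of subunits of respiratory complexes II to V were followed on 9 Affymetrix arrays of U251 cells, an established human glioma line also labelled U251MG. Members were the genes of a fixed list of 38 subunits, and each was measured by the probe sets that carry its symbol and no other. Of the 38 genes, 34 had such a probe set, out of 11963 genes with one on the chip: 3 of 4 in complex II, 6 of 8 in complex III, 12 of 12 in complex IV and 13 of 14 in complex V. SDHB, UQCRFS1, UQCRH and ATP5MF were not analysed here, UQCRH and ATP5MF because their probe sets carry a second symbol. The 34 genes had 58 probe sets, and each gene was represented by the one with the highest mean over all arrays. The cells fell into 3 groups of 3 wells, given the transfection reagent Oligofectamine with an siRNA against WT1, Oligofectamine with a non-targeting (scrambled) siRNA, or Oligofectamine alone. All groups thus received the reagent, and each siRNA was applied at 100 nM. Each group carries replicate numbers 1 to 3, and each comparison was made within a number by a limma fit that has the number as a block. The design text calls the arrays biological triplicates, but what a number stands for beyond that is not stated, and only 1 cell line was used.

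Complexes II to V sit in the inner mitochondrial membrane. Complex II (succinate dehydrogenase) feeds electrons from the citric acid cycle into the chain. Complex III passes them to cytochrome c and complex IV (cytochrome c oxidase) to oxygen, and complex V (ATP synthase) uses the resulting proton gradient to make ATP. Nearly all of their subunits are encoded in the nucleus, and their promoters are textbook targets of the factor NRF1 and of the ETS factor GABP. Glioma cells make ATP by glycolysis as well as by respiration.

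The promoters are shown for the NRF1 and ETS letters for which these genes are known. A RefSeq promoter window (GRCh38.p14) was at hand for 26 of the 34 genes. The 250 bases before the start were searched on both strands for NRF1 letters (GCGC, any 1 base, then TGCGC) and ETS letters (CCGGAAG), which can overlap each other. The NRF1 letters were found in 6 of 26 windows (23.1%), against 5.53% of 27305 windows, the first listed of each gene symbol. The ETS letters were found in 9 of 26 (34.6%), against 8.82% of all. In all, 13 of the 26 held one or the other, and 2 held both. For WT1 and its relative EGR1, the letters GCGTGGGCG or GCGGGGGCG were found in 2 of 26 (7.69%), against 5.3% of all. The members were not compared with genes of like expression or base content, so these shares are not shown to be particular to them. A match is a run of letters and not a shown binding site. Below are stretches that end at the last base before the start, 5′ to 3′ on the gene's strand, with NRF1 and ETS matches in capitals. SDHA, UQCR11 and COX6B1 had the smallest p of their complex between WT1 and scrambled siRNA, UQCRC1 differed greatly between replicate numbers, and ATP5MC2 had the highest change above 0.
SDHA, chr5:218140-218319, + strand: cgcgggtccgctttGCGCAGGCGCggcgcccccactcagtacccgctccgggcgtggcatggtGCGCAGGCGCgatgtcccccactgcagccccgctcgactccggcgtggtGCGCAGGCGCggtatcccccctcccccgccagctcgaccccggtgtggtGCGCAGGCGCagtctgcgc
UQCR11, chr19:1605463-1605592, - strand: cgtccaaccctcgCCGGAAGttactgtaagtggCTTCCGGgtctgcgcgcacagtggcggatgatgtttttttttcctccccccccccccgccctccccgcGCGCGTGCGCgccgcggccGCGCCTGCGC
UQCRC1, chr3:48609647-48609776, - strand: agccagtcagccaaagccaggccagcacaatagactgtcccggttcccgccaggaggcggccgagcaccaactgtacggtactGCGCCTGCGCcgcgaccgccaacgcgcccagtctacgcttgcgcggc
COX6B1, chr19:35648193-35648322, + strand: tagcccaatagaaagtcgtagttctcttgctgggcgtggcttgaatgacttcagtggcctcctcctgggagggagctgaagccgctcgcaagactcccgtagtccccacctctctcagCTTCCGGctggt
ATP5MC2, chr12:53676084-53676213, - strand: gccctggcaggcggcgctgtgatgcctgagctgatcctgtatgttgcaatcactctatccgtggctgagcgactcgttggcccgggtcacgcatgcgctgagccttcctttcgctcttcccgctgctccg
The SDHA stretch holds 4 NRF1 matches, the UQCR11 stretch 2 NRF1 and 2 ETS matches, and the stretches of UQCRC1 and COX6B1 1 match each. The ATP5MC2 stretch, from the first of its listed windows, holds 0 matches.

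WT1 itself, the zinc finger factor targeted by the siRNA, had log2 levels of 4.76, 5.09 and 4.82 with the WT1 siRNA, 5.59, 5.89 and 5.41 with the scrambled siRNA and 6.05, 6.58 and 5.89 with reagent. The groups did not overlap in either comparison with the WT1 siRNA, and WT1 fell to 60.0% of scrambled (adjusted p = 0.00336, limma) and 41.0% of reagent (adjusted p = 0.000619, limma). With the WT1 siRNA its levels lay near the lower quartile of each array (5.09, 5.02 and 5.05), so the share of WT1 left is uncertain. The scrambled siRNA also stood below reagent, by -0.55 (adjusted p = 0.0164). A fit without the replicate block did not call WT1 (adjusted p = 0.672 and 0.394), and its dimmer probe set had -0.18 and -0.15, not past the test in either comparison. The median level per array ranged over 6.45 to 6.53 (log2). Of 9 glioma and astrocyte markers, VIM and CD44 were brighter than 99.9% and 99.5% of probe sets, and GFAP than 55.4%. Of the 9, the glutamate transporter SLC1A3 fell by 0.70 between WT1 and scrambled siRNA (adjusted p = 0.000859, limma). Between scrambled siRNA and reagent, 3 of the 9 were above 0 and 6 below. SLC1A3 (0.49) and the matrix protein TNC (0.31) passed as higher there, while the lowest change, -1.11, did not pass. Between WT1 siRNA and reagent 0 of the 9 passed, with changes from -0.76 to 0.17. The part of these marker differences in the subunits' values was not tested. The 12 measured markers of other cell types were brighter than 7.5% (ALB) to 48.1% (CD3E) of probe sets, and 0 of them passed the test in any group comparison. In bulk RNA, fewer cells of a kind and less RNA per cell cannot be told apart.

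By the probe sets used, the respiratory genes were among the brightest on the chip. All of the 34 except COX7A1 were brighter, in the mean over arrays, than 81.7% (ATP5MC1) to 98.8% (COX7C) of probe sets. Each gene's brightest probe set was ranked against all probe sets, dimmer ones of other genes included, so the choice itself raises these ranks. A second probe set of SDHD was brighter than only 8.3%. Brightness depends on the probes as well as on the transcript, so it gives no order of abundance among subunits. COX7A1, the form of subunit 7a found in heart and skeletal muscle, lay at the dim end, brighter than 20.1% of probe sets. Its widely expressed counterpart COX7A2 was brighter than 98.4%, and COX7A2L, a relative that joins complexes III and IV into supercomplexes, than 94.6%. Of the 34 probe sets used, 14 have the name ending _s_at and 5 the ending _x_at, which mark probes that can match more than 1 transcript. The probe set of SDHA, whose pseudogenes are close to it in sequence, is one of these, and its levels are uncertain for that reason.

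Setting WT1 siRNA against scrambled siRNA asked whether lowering WT1 changes these transcripts when both groups carry an siRNA. No subunit passed the test: limma called 0 of 34 genes at an adjusted p under 0.05, against 3.7% of all genes, and 7 of the 34 had an unadjusted p under 0.05, as did 17.7% of all genes. Most fitted changes were small and below 0. They were below 0 for 30 of 34 subunits, against 50.6% of all genes and 60.6% of the 2910 genes above the 80th percentile of brightness, a class chosen after the values were seen. The median change was -0.08 on the log2 scale, against -0.00155 for all genes and -0.03 for the bright ones, and within replicate numbers 1, 2 and 3 it was -0.08, -0.11 and -0.08. Of the 34, 17 were lower in all 3 numbers (20.1% of all genes were) and 1 was higher in all 3 (16.4% of all genes). The arrays of the groups did not overlap, with the WT1 siRNA lower, for 4 (SDHC, COX7B, ATP5PB and ATP5PO), against 3.8% of all genes. With eBayes run with a trend and robust variances, 3 of the 34 passed, namely UQCR11, ATP5F1D and ATP5MC2, against 5.66% of all genes. The 95% interval of a single change had a median half-width of 0.14, and across the 34 genes the intervals ran between -0.46 (SDHC) and 0.32 (ATP5MC2). These are intervals of single genes and give no joint bound on the changes.

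**Figure D1:**
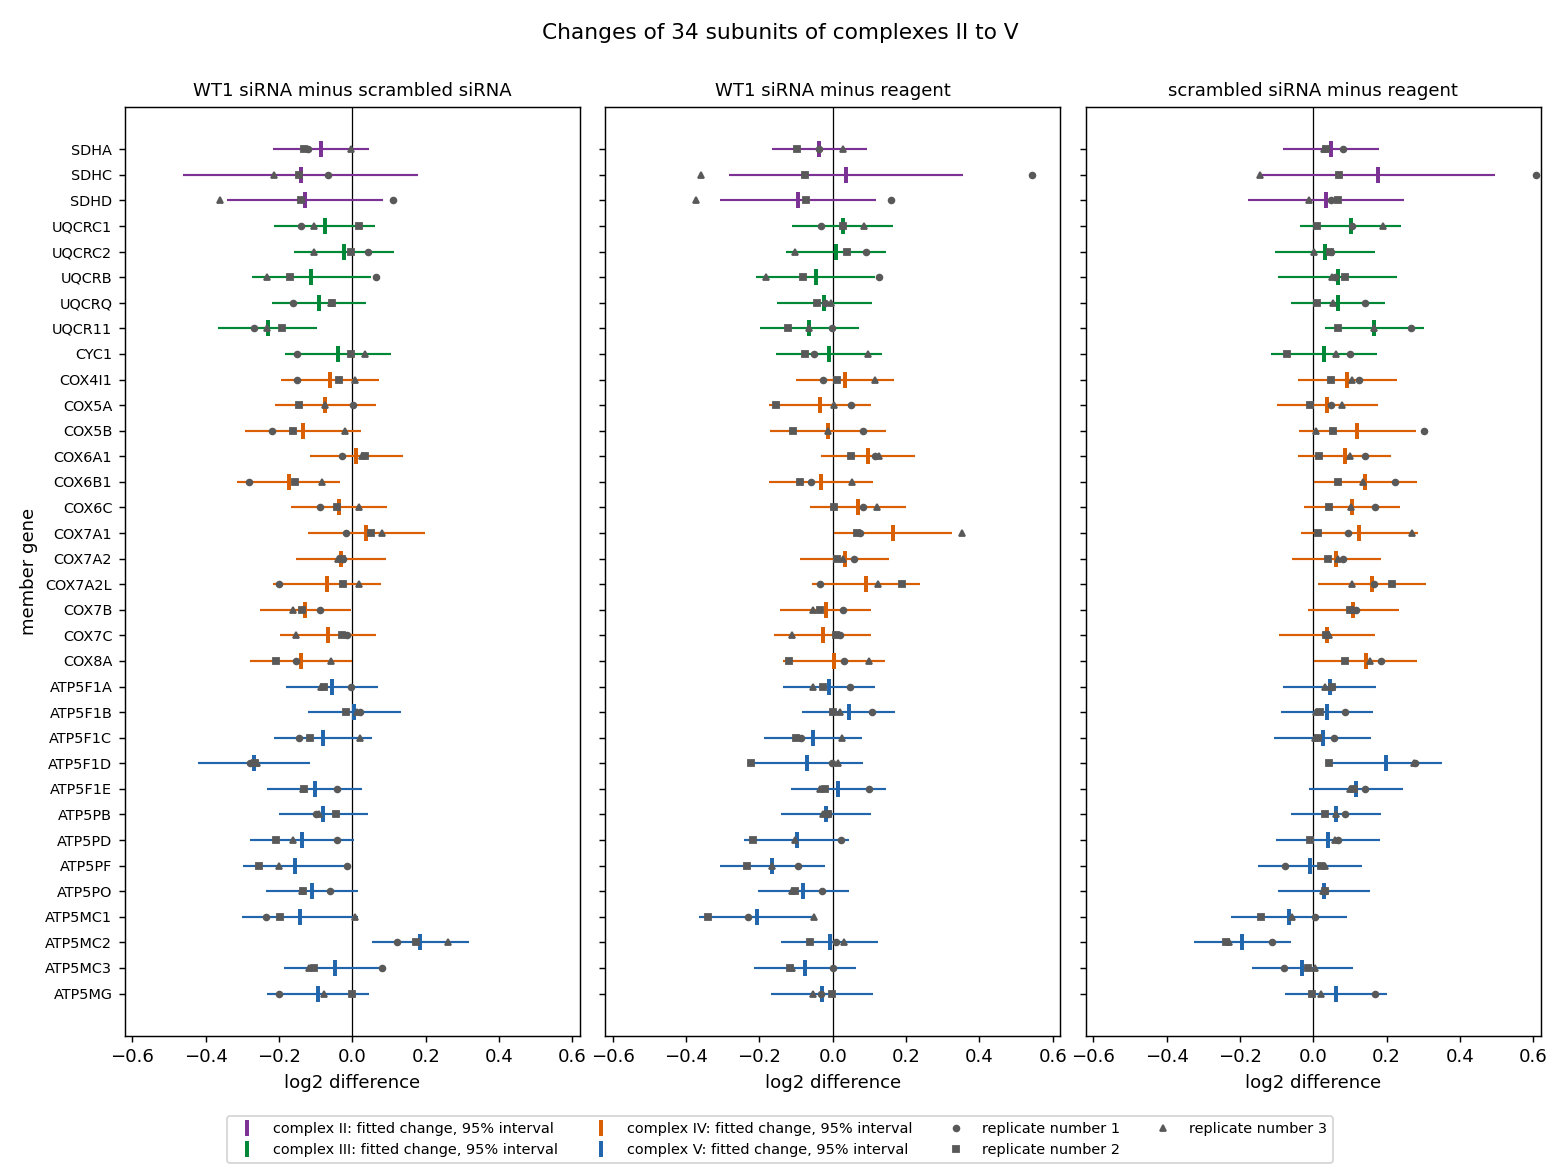
Log2 differences of the 34 subunits (rows, by complex) in the 3 comparisons. Grey symbols are the differences within replicate numbers 1 to 3, coloured ticks are fitted changes and lines are 95% intervals. Most subunits lie left of 0 between WT1 and scrambled siRNA (30 of 34) and right of 0 between scrambled siRNA and reagent (30 of 34), while ATP5MC2 does the reverse.

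In complex II the fitted changes were -0.14 for SDHC and -0.13 for SDHD, the membrane anchors, and -0.09 for SDHA, the flavoprotein that binds succinate. SDHA had log2 levels of 9.72, 9.80 and 9.98 with the WT1 siRNA, 9.84, 9.93 and 9.99 with the scrambled siRNA and 9.76, 9.90 and 9.96 with reagent. The 3 groups overlapped, and SDHA stood at 94.3% of the scrambled level (SE 0.0581, adjusted p = 0.541, limma). SDHC did not have 1 direction over its probe sets. The probe set used had levels of 9.57, 9.51 and 9.47 with the WT1 siRNA and 9.64, 9.66 and 9.69 with the scrambled siRNA. The groups did not overlap there, but the other 3 SDHC probe sets had changes of 0.05, 0.08 and 0.09. With reagent the probe set used had 9.03, 9.59 and 9.83, the low value being that of replicate number 1, and SDHC had the widest interval of the members. That reagent array was also lowest in its group at the SDHC probe sets with the ending _x_at (8.19 and 7.98). At the fourth probe set it had 7.81, as did reagent number 2. The number 1 arrays with WT1 and scrambled siRNA had 8.80 and 8.75 there.

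In complex III all 6 measured subunits had changes below 0 and 0 passed. UQCR11, one of the small subunits without a redox centre, had levels of 11.27, 11.06 and 11.28 with the WT1 siRNA, 11.54, 11.25 and 11.51 with the scrambled siRNA and 11.28, 11.19 and 11.34 with reagent. The 2 siRNA groups overlapped, yet in each number the WT1 siRNA array was lower, by -0.27, -0.19 and -0.23. The fitted change of -0.23 (95% interval -0.37 to -0.10, SE 0.0601) put it at 85.2% of the scrambled level, with an adjusted p of 0.0762 in limma. With trend and robust variances the adjusted p was 0.00996. The other changes ran from -0.11 (UQCRB, the ubiquinone-binding protein) to -0.02 (UQCRC2, a core subunit). UQCRQ, another small subunit, had -0.09, UQCRC1, the other core subunit, -0.08, and CYC1, the haem protein cytochrome c1, -0.04.

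In complex IV 10 of 12 subunits had changes below 0 and 0 passed. These nuclear-encoded subunits surround the catalytic core, which mitochondrial DNA encodes. COX6B1, which joins the monomers of the dimer, had levels of 11.37, 11.08 and 11.29 with the WT1 siRNA, 11.65, 11.24 and 11.37 with the scrambled siRNA and 11.42, 11.17 and 11.24 with reagent. It was lower in 3 of 3 numbers, and its change of -0.17 (SE 0.0626) left it at 88.7% of the scrambled level with an adjusted p of 0.196 in limma. COX8A (-0.14), COX5B (-0.13) and COX7B (-0.13) were lower in 3 of 3 numbers too, without passing, as were COX7C and COX7A2 with smaller changes. COX7C, COX5A, COX4I1 and COX6C had changes of -0.07, -0.07, -0.06 and -0.04, and COX6A1 had 0.01. The forms of subunit 7a passed no test. COX7A1 had levels of 4.86, 4.86 and 4.91 with the WT1 siRNA, 4.87, 4.81 and 4.83 with the scrambled siRNA and 4.78, 4.80 and 4.56 with reagent. COX7A2 had 11.96, 12.02 and 11.92 with the WT1 siRNA, 11.99, 12.05 and 11.96 with the scrambled siRNA and 11.90, 12.01 and 11.90 with reagent. COX7A2L had 10.52, 10.72 and 10.57 with the WT1 siRNA, 10.72, 10.74 and 10.55 with the scrambled siRNA and 10.56, 10.53 and 10.45 with reagent. Between WT1 and scrambled siRNA their arrays overlapped, with 95% intervals of -0.12 to 0.20 for COX7A1, -0.15 to 0.09 for COX7A2 and -0.22 to 0.08 for COX7A2L.

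In complex V 11 of 13 subunits had changes below 0 and 0 passed. ATP5F1D, the delta subunit of the central stalk, had levels of 9.51, 8.99 and 10.14 with the WT1 siRNA, 9.79, 9.25 and 10.40 with the scrambled siRNA and 9.51, 9.21 and 10.13 with reagent. The groups overlapped widely because the numbers differed, but within numbers it was lower with the WT1 siRNA by -0.28, -0.26 and -0.26. Its change of -0.27 (95% interval -0.42 to -0.12, SE 0.0677), which put it at 83.0% of the scrambled level, had an adjusted p of 0.0688 in limma, or 0.0245 with trend and robust variances. Its other probe set had -0.22 (adjusted p = 0.283). ATP5PF and ATP5PO of the peripheral stalk had -0.16 and -0.11 and were lower in 3 of 3 numbers. So were ATP5PD (-0.14) and ATP5PB (-0.08) of the same stalk, the alpha subunit ATP5F1A of the soluble head (-0.06) and the epsilon subunit ATP5F1E (-0.10). ATP5F1C, the gamma subunit of the rotor, had -0.08, and ATP5F1B, which carries the catalytic sites, had 0.01.

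The 3 genes for the c subunit, ATP5MC1, ATP5MC2 and ATP5MC3, encode the same mature protein of the membrane ring with different import sequences, and their transcripts did not go one way. ATP5MC2 had levels of 10.88, 10.64 and 11.01 with the WT1 siRNA, 10.75, 10.47 and 10.75 with the scrambled siRNA and 10.87, 10.71 and 10.98 with reagent. In each number the scrambled array was the lowest of the 3, although the groups overlapped. The change against scrambled siRNA was 0.19 (95% interval 0.05 to 0.32, SE 0.059, adjusted p = 0.143 in limma, or 0.0458 with trend and robust variances), at 114% of the scrambled level. It was the only one of the 34 higher in 3 of 3 numbers. ATP5MC1 and ATP5MC3 had changes of -0.14 and -0.05. The second probe set of ATP5MC2, which was dimmer (brighter than 44.6% of probe sets), had -0.02. With the mean of both probe sets ATP5MC2 had 0.08. How far probes of the 3 genes share signal was not tested.

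**Figure D2:**
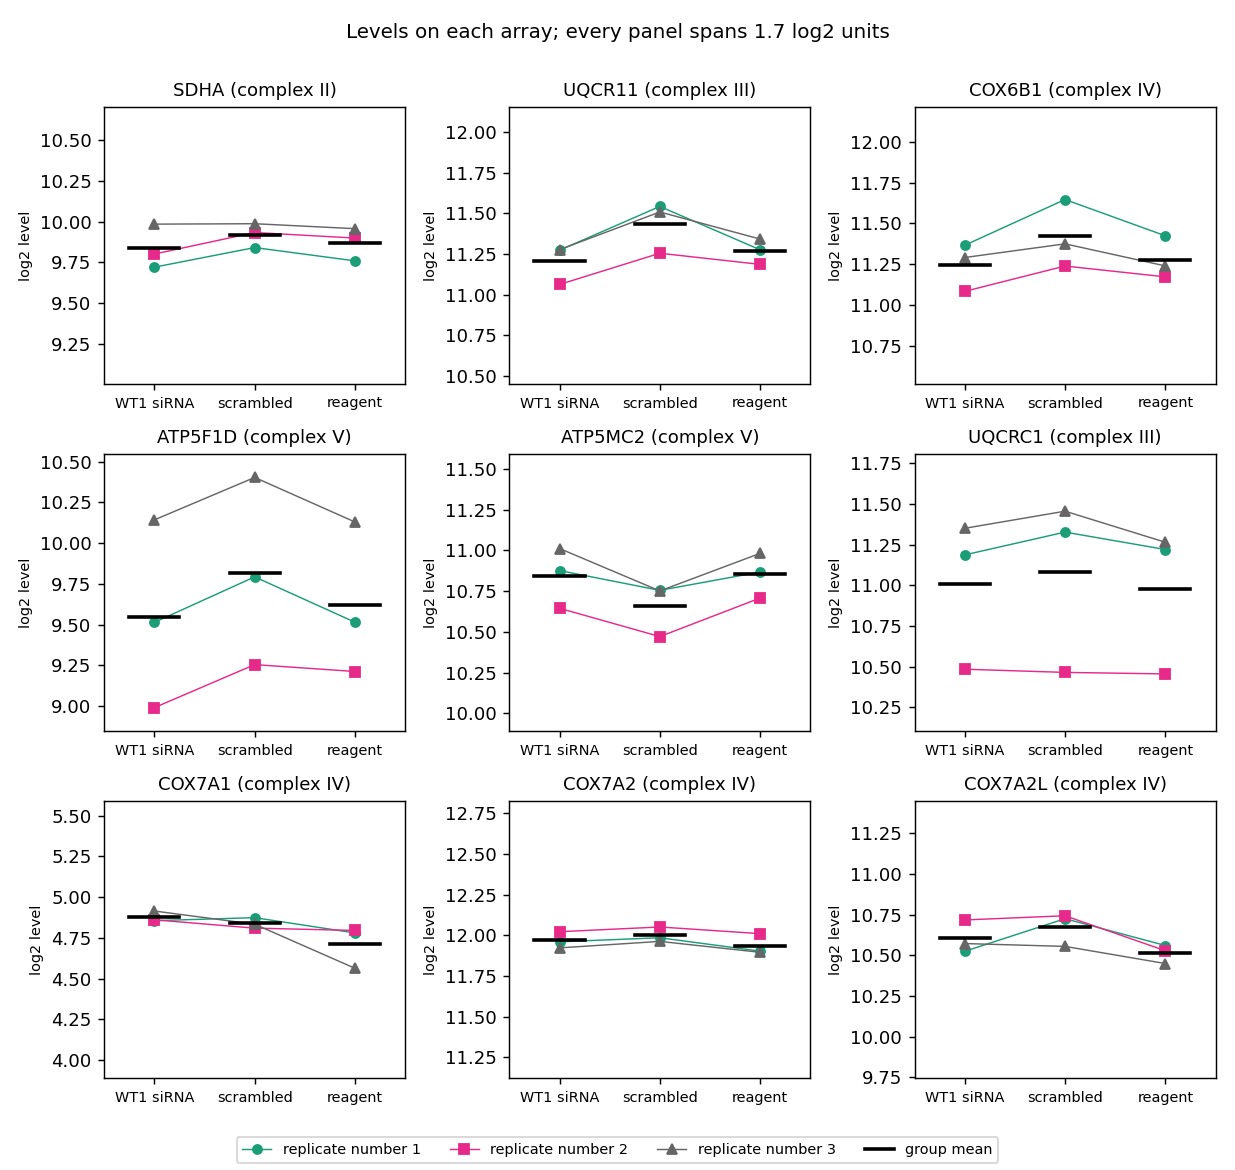
Log2 levels on each array for 9 subunits, with lines joining the arrays of 1 replicate number and black bars for group means (n = 3). Panels differ in their start and all span 1.7 log2 units, written in the figure title. ATP5F1D and UQCRC1 spread more between numbers than between groups, and ATP5MC2 dips with the scrambled siRNA in every number.

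Other probe sets of a gene gave a check for 13 of the genes, with 24 further probe sets. Of these, 18 had the sign of the probe set used. Some were dim, such as those of SDHD, COX5B and ATP5MC2 that were brighter than 8.3%, 32.7% and 44.6% of probe sets. Probe sets of a gene were read on the same arrays, so they are not independent of each other. Over all 58 probe sets 49 were below 0 and 0 passed. The nearest to the threshold was the one with the plain ending _at for ATP5MG, the g subunit, with levels of 8.57, 8.32 and 8.39 with the WT1 siRNA, 8.71, 8.86 and 8.78 with the scrambled siRNA and 8.56, 8.61 and 8.71 with reagent. The siRNA groups did not overlap, and its change was -0.36 (SE 0.0824, adjusted p = 0.0504, limma). It was picked after its values were seen. The other 3 ATP5MG probe sets had -0.09, -0.12 and -0.12.

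Setting WT1 siRNA against reagent used the second control, which carries no siRNA. Lowering WT1 and the presence of an siRNA cannot be told apart in it. Here limma called 0 of 34 genes, against 1.4% of all genes, with 3 at an unadjusted p under 0.05, as for 15.9% of all genes. The fitted changes were below 0 for 22 of 34 (46.1% of all genes, 59.2% of the bright ones). Their median was -0.02, against 0.01 for all genes and -0.02 for the bright ones. The count below 0 was 17 without reagent replicate 2. Complex V had 11 of 13 below 0, complex IV 5 of 12. The lowest were ATP5MC1 (-0.21, 86.6% of reagent, SE 0.0704, adjusted p = 0.203), ATP5PF (-0.16, adjusted p = 0.262), ATP5PD (-0.10), SDHD (-0.10) and ATP5PO (-0.08). ATP5MC1 had levels of 8.60, 8.57 and 9.10 with the WT1 siRNA and 8.83, 8.91 and 9.15 with reagent. It was lower in 3 of 3 numbers, though the groups overlapped. For ATP5PF and ATP5PO every array with the WT1 siRNA lay below every reagent array, and ATP5PO, the oligomycin sensitivity protein, did so against the scrambled siRNA as well. For COX7A1 (0.16) and COX6A1 (0.10) every array with the WT1 siRNA lay above. The next highest were COX7A2L (0.09), COX6C (0.07) and ATP5F1B (0.04). The share of genes without overlap was 3.19% lower and 2.68% higher over all genes.

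Setting scrambled siRNA against reagent asked what this scrambled siRNA does, and WT1 itself stood at 68.4% of reagent there. The comparison shares its scrambled arrays with the first one, so opposite signs in the 2 are not independent of each other. Again limma called 0 of 34 genes, against 1.21% of all genes, with 6 at an unadjusted p under 0.05, as for 13.1% of all genes. The changes were above 0 for 30 of 34, and below 0 for 4, against 44.3% of all genes and 47.8% of the bright ones. The median was 0.06, against 0.01 for all genes and 0.006 for the bright ones. In replicate numbers 1, 2 and 3 it was 0.09, 0.03 and 0.06. All 12 subunits of complex IV were above 0, as were the 6 of complex III and the 3 of complex II, and 24 of the 34 were higher in 3 of 3 numbers, against 21.7% of all genes. The highest were ATP5F1D (0.20, adjusted p = 0.263), SDHC (0.18, with 0.61, 0.07 and -0.15 in numbers 1, 2 and 3), UQCR11 (0.17, adjusted p = 0.294), COX7A2L (0.16) and COX8A (0.14). The 4 below 0 were ATP5MC2 (-0.19, adjusted p = 0.195), ATP5MC1 (-0.07), ATP5MC3 (-0.03) and ATP5PF (-0.01), so that the 3 c-subunit genes were on that side together. The scrambled arrays lay above all reagent arrays for COX5B, COX6C, COX7A1 and ATP5PB, which is 4 of 34 against 2.97% of all genes.

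Other mitochondrial genes were set beside them as counts. Complex I, measured for 28 subunits, had 27 below 0 between WT1 and scrambled siRNA (median -0.11), and 2 passed, NDUFA1 (-0.84, adjusted p = 0.0059) and NDUFB5 (-0.43, adjusted p = 0.0215). Both also passed against reagent (-0.82 and -0.45). Without the replicate block neither passed in either comparison, with adjusted p of 0.221 and 0.394 for NDUFA1. That the calls fell in complex I and not in complexes II to V was not itself tested. Of 7 further subunits of complexes III to V and cytochrome c, 6 were below 0 against scrambled siRNA (median -0.10) and 0 passed, led by ATP5ME (-0.14), UQCR10 (-0.15) and ATP5IF1, the inhibitor of ATP synthase (-0.15). Assembly factors were more mixed, with 13 of 20 below 0 (median -0.05). SDHAF3, which helps build complex II, had -0.30 (adjusted p = 0.0809), COX15, needed to make haem a, 0.22, and LRPPRC, which stabilises mitochondrial mRNAs, -0.18. TTC19, an assembly factor of complex III, was the 1 of 20 that passed between scrambled siRNA and reagent, where it fell by 0.35 (adjusted p = 0.0323), a call that the fit without the block did not make.

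Regulators of respiratory genes lay close to 0 against scrambled siRNA (7 of 11 below, median -0.01, 0 passed), led by TFAM (0.13), which packages mitochondrial DNA, YY1 (0.10) and TFB2M (-0.08). Of the citric acid cycle and pyruvate dehydrogenase genes 10 of 16 were below 0 (median -0.03, 0 passed), with DLAT (-0.23, adjusted p = 0.0708), SUCLG2 (0.23) and PDHX (-0.15) first by p. Mitochondrial carriers, import genes and chaperones had 11 of 17 below 0 (median -0.01, 0 passed), led by SLC25A4, an ADP/ATP carrier (-0.17), HSPE1 (-0.13) and TOMM70 (-0.13). Against reagent 0 genes of these 3 lists passed.

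**Figure D3:**
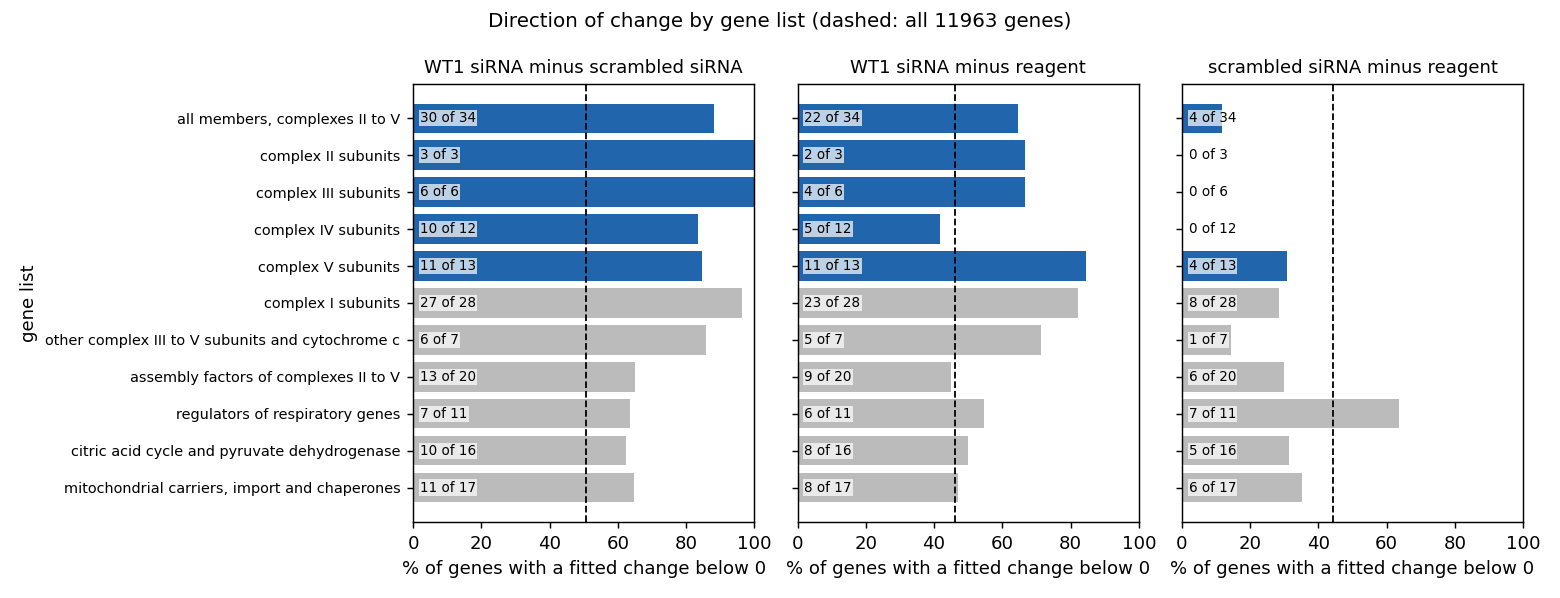
Share of genes with a fitted change below 0, by gene list (rows) and comparison (panels), with the counts written on the bars and a dashed line for all 11963 genes. Blue bars are complexes II to V and grey bars other mitochondrial lists. Between WT1 and scrambled siRNA the subunit lists, those with complex I and with cytochrome c included, are below 0 more often than the rest. This difference was not tested. Between scrambled siRNA and reagent, 0 subunits of complexes II to IV are below 0.

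Most subunits differed more between replicate numbers than between groups. Of their pooled sum of squares 76.1% lay between numbers and 13.7% between groups, against 71.4% and 15.6% over all probe sets. ATP5F1D and UQCRC1 had large differences between numbers and weigh on that sum, and the median over single subunits was 59.7% between numbers and 20.4% between groups. The share between groups was the greater for 9 of 34, namely UQCR11, COX6A1, COX6C, COX7A1, COX7A2L, COX7B, ATP5PB, ATP5PF and ATP5PO. No such count or median over all genes is set beside these, so they are not read as particular to the subunits. Between number 2 and number 3, 9 of 34 passed, all lower in number 2, where 23.2% of all genes passed and 11% passed as lower. ATP5F1D averaged 9.15 ± 0.142 in number 2 and 10.23 ± 0.154 in number 3 (SD, n = 3), a change of -1.07 (SE 0.0677, adjusted p = 3.82e-05, limma) or 2.10-fold. Its other probe set had -0.80. UQCRC1 averaged 10.47 ± 0.0147 in number 2 and 11.36 ± 0.0956 in number 3 (SD, n = 3), a change of -0.89 (adjusted p = 4.7e-05, limma) or 1.85-fold. Its levels were 11.19, 10.48 and 11.35 with the WT1 siRNA, 11.33, 10.47 and 11.46 with the scrambled siRNA and 11.22, 10.46 and 11.26 with reagent. UQCRC1 was picked for this after its values were seen. The number 2 arrays of all 3 groups were below all others, by more than any 2 groups differed within a number.

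The other 7 lower in number 2 than in number 3 were COX8A (-0.38), ATP5MC1 (-0.36), ATP5PD (-0.32), ATP5MC2 (-0.31), ATP5F1E (-0.22), UQCR11 (-0.21) and ATP5MC3 (-0.21). Complex V gave 6 of the 9. Between number 1 and the mean of numbers 2 and 3, 7 of 34 passed, 4 higher and 3 lower, where 43.2% of all genes passed, 18.5% as higher and 24.7% as lower. UQCRC1 (0.33), COX6B1 (0.25), ATP5MG (0.18) and COX4I1 (0.15) were higher in number 1, and ATP5F1E (-0.34), ATP5MC1 (-0.18) and SDHA (-0.15) lower. That count fell to 3 without replicate 1 of the scrambled or reagent group or scrambled replicate 2, and to 4 without reagent replicate 2 or scrambled replicate 3.

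Control probe sets moved with the numbers as well. The 3′ minus 5′ difference of the beta-actin control was 0.05 to 0.09 on the number 1 arrays, 0.55 to 0.68 on the number 2 arrays and 0.26 to 0.50 on the number 3 arrays. That of GAPDH was -0.02 to -0.01, 0.16 to 0.18 and 0.10 to 0.11. Within number 3 the beta-actin difference was 0.26 with the WT1 siRNA, 0.46 with the scrambled siRNA and 0.50 with reagent. The part of RNA quality in the differences was not tested. For COX7A1, SDHD, ATP5PB, SDHC and ATP5PO the numbers accounted for less of the spread than for other members (8.75% to 27.5% of the sum of squares).

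**Figure D4:**
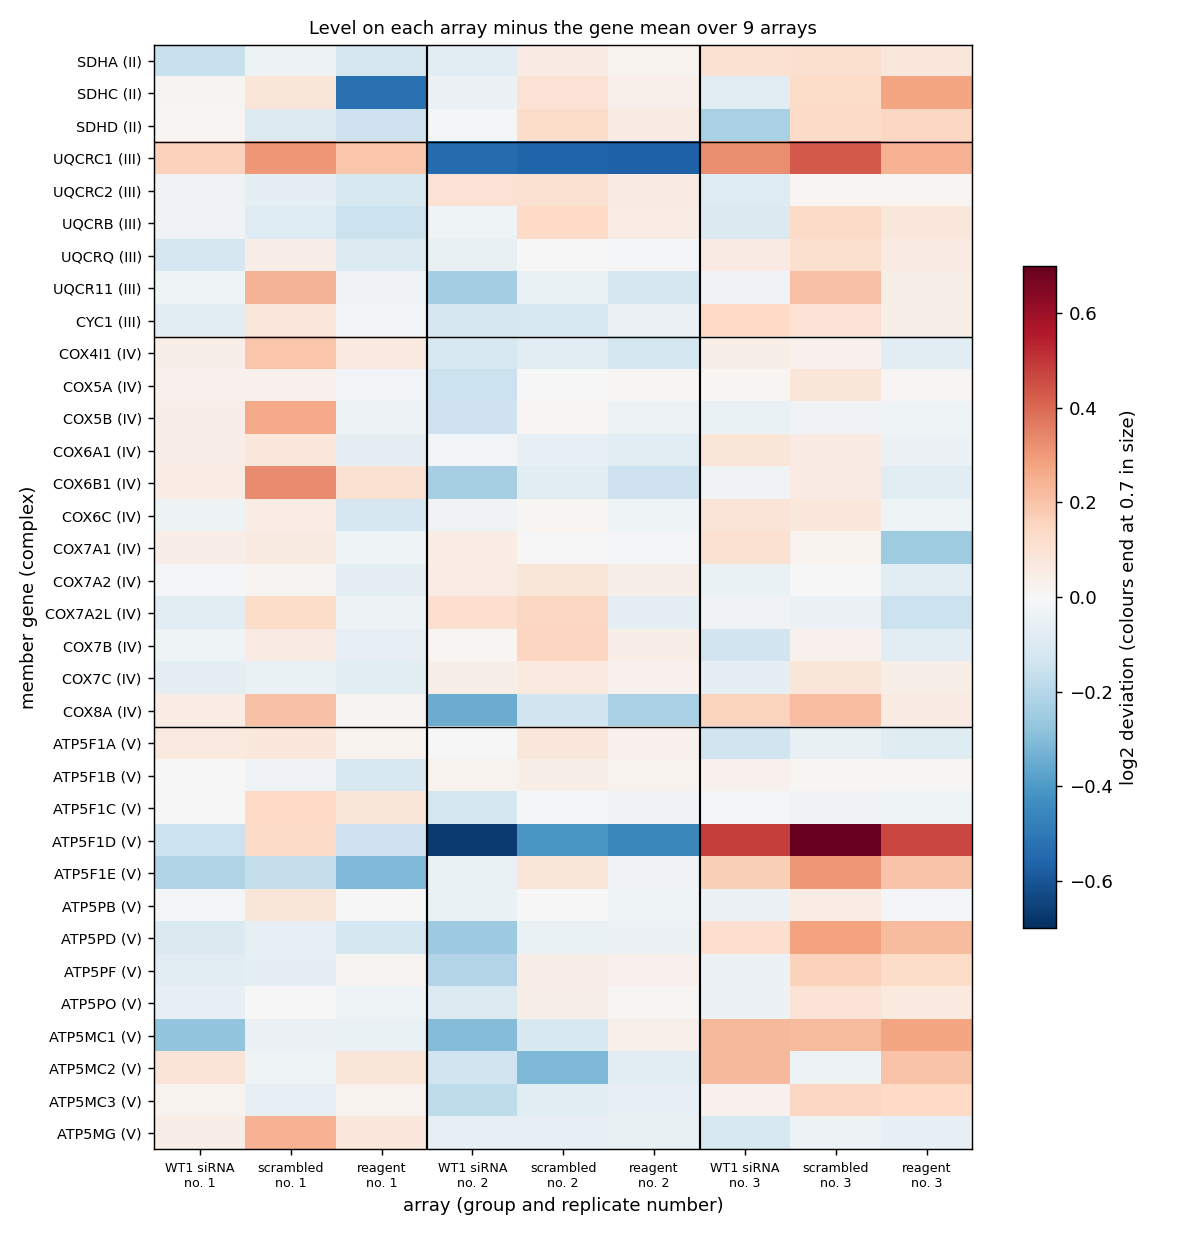
Deviation of each array from the gene's mean over 9 arrays (log2, colour), with arrays ordered by replicate number and, within a number, WT1 siRNA, scrambled siRNA and reagent. ATP5F1D and UQCRC1 are low on the 3 arrays of number 2, and the reagent array of number 1 is low for SDHC.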

How the data were processed

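Groups and replicate numbers came from the sample titles. Per the labels, the authors hybridised biotin-labelled RNA to Affymetrix arrays, and the submitters' processing notes name RMA, a method that corrects background, normalises across arrays and gives 1 log2 value for each probe set. The deposited log2 values fit that scale. Its version was not given in the sources used here. Control probe sets (62) were left out of 22277, leaving 22215. Of these 19064 carry 1 gene symbol.

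The log2 values were used as deposited. Limma 3.58.1 in R 4.3.3 was fitted to all 9 arrays with group and replicate number as a fixed block (4 residual degrees of freedom), two-sided, with Benjamini-Hochberg adjustment over all probe sets and a threshold of 0.05. Arrays with the same number in different groups deviated together from their group means (correlations 0.647 to 0.849, other numbers -0.611 to -0.031), and all groups share the numbers in their titles. Deviations within a group cancel out, so the negative values for other numbers follow in part from taking out the group means. The procedure was tested on simulated data. Figures used matplotlib 3.10.9.

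The members and gene lists were chosen with earlier results of these data known. Levels in every array are given for the subunit with the smallest p per complex between WT1 and scrambled siRNA, the 3 forms of subunit 7a and, chosen after values were seen, SDHC, ATP5MC1, ATP5MC2, UQCRC1 and 1 probe set of ATP5MG. Changes are given for up to 5 greatest rises and falls per comparison and up to 3 genes per other list. Alternatives covered the block, normalization, a filter on dim probe sets, the variance model, averaging of probe sets and leaving arrays out. For arrays, their number limits the precision.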

Additional observations from a re-analysis of the deposited data

How the results depend on the processing

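Over 19 alternatives in each of the 3 group comparisons, 0 subunits passed in 56 of 57 cases. The exception was eBayes with trend and robust variances between WT1 and scrambled siRNA, with 3 called. Without the replicate block 0 subunits passed in any comparison, as with it, and in that fit 4, 0 and 1 of all genes passed (WT1 against scrambled siRNA, WT1 siRNA against reagent, scrambled siRNA against reagent). The block changed no call of a subunit of complexes II to V, but the calls of WT1, NDUFA1, NDUFB5, TTC19, SLC1A3 and TNC were made only with it. The median change kept its sign in 57 of 57 cases, between -0.10 and -0.06 for WT1 against scrambled siRNA (29 to 32 subunits below 0), -0.05 and -0.0003 for WT1 siRNA against reagent (17 to 26 below 0), and 0.04 and 0.08 for scrambled siRNA against reagent (3 to 6 below 0). Quantile normalization gave -0.060 for WT1 against scrambled siRNA. The cause of that shift was not tested. Between replicate number 1 and the others, 7 subunits passed, against 3 to 8 when 1 array was left out and 13 with trend and robust variances. Between numbers 2 and 3 the count was 9, against 6 to 12. With 3 arrays per group, the 95% interval of a change had a median half-width of 0.14 on the log2 scale.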
